A study of Rattus norvegicus with 12 samples.

Results

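The members were 7 genes: Abcb1a and Abcb1b, which encode the rodent forms of P-glycoprotein, Abcc1, Abcc2, Abcc3 and Abcg2, which encode other efflux pumps of the ABC family, and Nr1i2, which encodes the nuclear receptor PXR. Every probe set whose only gene in the platform annotation was a member was taken, whatever its signal. This gave 7 probe sets for 6 of the 7 genes, among 14218 genes with a probe set of their own. Abcb1a had 2, called here the brighter and the dimmer, and the other 5 genes had 1 each. Abcb1b had no probe set of its own. A further probe set is annotated to both Abcb1a and Abcb1b, and its values are given as those of the shared probe set without naming either gene.

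ABC transporters use ATP to move substrates across a membrane. In the enterocyte, P-glycoprotein, MRP2 (Abcc2) and BCRP (Abcg2) sit in the brush border and return drugs and conjugates to the gut lumen, whereas MRP3 (Abcc3) and MRP1 (Abcc1) sit in the basolateral membrane and pass substrates towards the blood. PXR binds drugs and bile acids, pairs with a retinoid X receptor, and is known to induce P-glycoprotein, Abcc2 and the drug-metabolising enzymes of the Cyp3a family in liver and gut.

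The RNA came from Belgrade rats, whose duodenal and jejunal mucosa was scraped off. Homozygotes (b/b) carry a recessive mutation of Slc11a2, which encodes the iron and metal importer DMT1, on both chromosomes and are known to be anaemic, and heterozygotes (+/b) carry it on 1, so no wild-type group was present. The titles of the heterozygous duodenum arrays read "+b" and were taken as +/b. For each genotype there were 3 groups of rats, each of which supplied both tissues, with 1 array for each tissue, which makes 12 arrays in 4 groups of 3. Same-numbered arrays of a genotype were taken as 1 rat group, which the labels do not state. The replicate is a group of rats; how many animals a group held, and their age, sex and diet, is not given in the sources used here. All rats carry the allele in every tissue, so the mutation is not restricted to the gut.

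Per the deposited values, 10 arrays had a 2% trimmed mean of 500.2, and +/b duodenum replicates 2 and 3 had 51.6 and 126.6. Each array was scaled to a trimmed mean of 500, and "signal" below means this scaled intensity. After scaling, the median over probe sets lay between 108.4 and 181.5 per array. Replicate 1 of b/b duodenum was the array least like the rest (median Spearman correlation with them 0.837). Of 13 villus enterocyte markers 11 had a probe set, and all 11 had a signal of at least 100 on every array, so the labelled tissue carried its absorptive cells. Exocrine pancreas markers (11 of 12 with a probe set) summed to 1171 to 1866 on 10 arrays, while replicate 3 of b/b duodenum had 7780 and replicate 2 of +/b duodenum had 145932, and none of these markers was at 0 on any array. A scrape holds several cell types, and fewer cells of a type and less RNA per cell cannot be told apart in it.

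The promoter bases of Abcb1a and Abcc2 are shown because these were the members whose transcripts differed between the segments in opposite directions. Promoter entries were found for 6 of the 7 members in the RefSeq table (assembly GRCr8); Abcc3 was not matched. The 250 bases before each start are written 5′ to 3′ on the gene's strand. Capitals mark GGGCGG, the GC box core that Sp1 is known to bind, in Abcb1a, and the nuclear receptor half-sites AGTTCA and AGGTCA, in either orientation, in Abcc2.
Abcb1a, chr4:26397649-26397898, minus strand: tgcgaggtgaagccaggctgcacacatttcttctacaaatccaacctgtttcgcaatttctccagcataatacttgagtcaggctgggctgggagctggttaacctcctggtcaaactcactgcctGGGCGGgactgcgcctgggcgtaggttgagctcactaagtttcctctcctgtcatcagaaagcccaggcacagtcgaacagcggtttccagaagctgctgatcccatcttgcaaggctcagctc
Abcc2, chr1:252613625-252613874, plus strand: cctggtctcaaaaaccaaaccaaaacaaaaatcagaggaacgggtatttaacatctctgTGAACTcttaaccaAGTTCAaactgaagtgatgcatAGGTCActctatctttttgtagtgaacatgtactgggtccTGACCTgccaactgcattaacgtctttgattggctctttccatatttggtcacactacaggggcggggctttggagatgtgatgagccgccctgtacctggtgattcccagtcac
The Abcc2 window held 4 half-sites. The first pair forms the everted repeat TGAACTcttaaccaAGTTCA, 191 to 172 bases before the start, with 8 bases between the half-sites. Everted repeats of such half-sites are a known arrangement for PXR and related receptors. The exact half-site letters and spacing of this Abcc2 element occurred in 1 of 33465 RefSeq promoter windows of the same length (0.00299%), that of Abcc2 itself. Everted repeats with other half-site letters or spacings were not counted, so this share does not show how rare such repeats are. Counted on both strands, AGTTCA was in 2 of the 6 member windows (Abcc2 and Nr1i2) and in 12.2% of all windows, and AGGTCA was in 1 (Abcc2) and in 14.1%. The core GGGCGG was in 5 of the 6, all but Nr1i2, and in 30.5% of all windows. CCAAT, the core of the NF-Y motif, was in 3 (Abcb1b, Abcc2 and Nr1i2) and in 34% of all windows, and GATAAG, which GATA factors are known to bind, was in 0 and in 6.19%. These are letter matches in a short window and describe no binding. In the RefSeq order of genes along the chromosome, Abcb1a and Abcb1b are neighbours, in the order Crot, Abcb4, Abcb1b, Abcb1a, Rundc3b.

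The first comparison set the jejunum against the duodenum, and here the members went separate ways. Abcb1a transcript was 2.44 to 2.50 times as high in the jejunum, Abcc2 transcript was 1.74 times as high in the duodenum, and the other 4 measured genes did not pass the test. Averaged over the genotypes (6 arrays against 6), 3 of the 7 member probe sets were called at a limma adjusted p under 0.05, against 1.4% of all 17694 probe sets tested. Both brush border pumps called thus lay on opposite sides of the duodenum to jejunum step. The signal of every member on every array is plotted in the panels of signal by group.

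**Figure D1:**
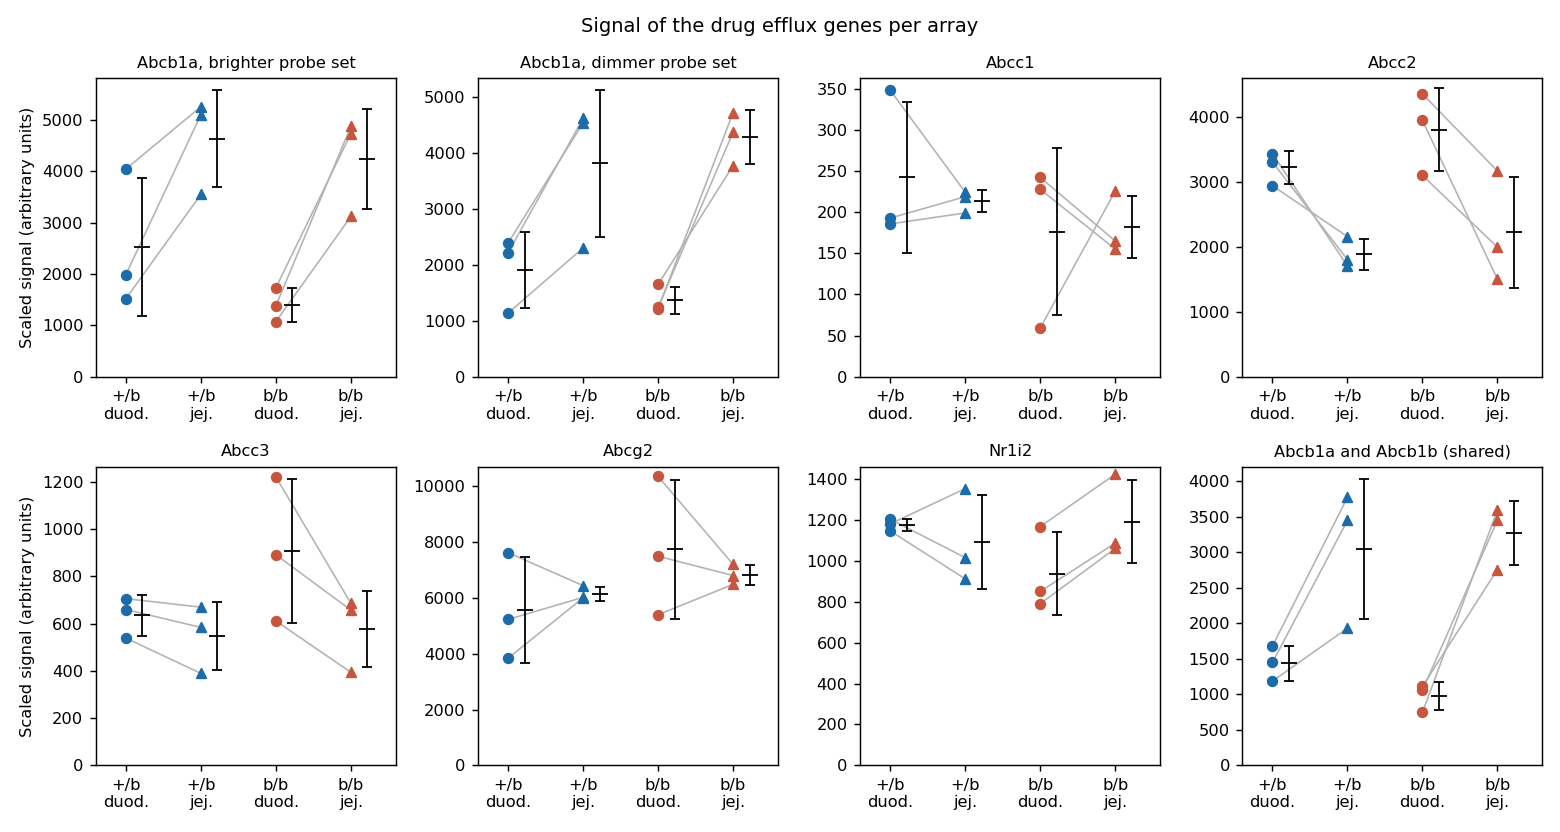
Scaled signal (linear axis, own scale in each panel) of the 7 member probe sets and the shared probe set on the 12 arrays, by genotype and segment; circles are duodenum and triangles jejunum arrays, the black bars give the group mean ± SD (n = 3) and grey lines join the arrays of 1 group of rats. All 6 lines of both Abcb1a panels go up from duodenum to jejunum, and all 6 lines of Abcc2 go down.

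Abcb1a encodes the P-glycoprotein that is the main form of the rodent intestine. On its brighter probe set, the +/b duodenum arrays read 1991, 4047 and 1522 and the +/b jejunum arrays 5108, 5263 and 3552 (replicates 1, 2 and 3). The b/b duodenum arrays read 1074, 1733 and 1385, and the b/b jejunum arrays 3123, 4739 and 4879. Every b/b jejunum array lay above every b/b duodenum array, while in +/b the duodenum replicate 2 lay above the lowest jejunum array. The jejunum was higher by 1.29 ± 0.23 (log2, SE; 95% interval 0.80 to 1.77; limma adjusted p = 0.00997), and it was higher in 6 of 6 groups of rats, with ratios of 1.30 to 3.52. Such agreement of all 6 rat groups was met by 12.6% of all probe sets tested.

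The dimmer Abcb1a probe set gave the same picture. It read 2212, 2388 and 1135 in +/b duodenum and 4609, 4529 and 2298 in +/b jejunum. The b/b values were 1646, 1213 and 1238 for the duodenum and 3769, 4712 and 4366 for the jejunum. The groups were apart in b/b, and in +/b the lowest jejunum array was below the highest duodenum array. The averaged difference was 1.32 ± 0.21 (limma adjusted p = 0.00602), higher in the jejunum in 6 of 6 rat groups (ratios 1.90 to 3.89). Over the 12 arrays the log2 signals of the pair of Abcb1a probe sets had a Pearson correlation of 0.887, as a description. The shared probe set of Abcb1a and Abcb1b was also higher in the jejunum in 6 of 6 rat groups (ratios 1.63 to 4.82), by 1.39 ± 0.18 (limma adjusted p = 0.00114).

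Within a genotype, the Abcb1a difference was larger in b/b but was not shown to differ between genotypes. In b/b rats 2 of the 7 member probe sets were called, against 0.763% of all tested: Abcb1a rose by 1.59 ± 0.32 on the brighter probe set (limma adjusted p = 0.0344) and by 1.65 ± 0.30 on the dimmer (adjusted p = 0.0219). In +/b rats 0 of the 7 were called, against 0.0565% of all. The Abcb1a values there were 0.98 ± 0.32 (limma adjusted p = 0.704) and 0.99 ± 0.30 (adjusted p = 0.638). An unadjusted limma p under 0.05 was met by 3 of the 7, both of Abcb1a and that of Abcc2, and by 948 of all 17694 probe sets tested. Under a block on rat group, which takes in that each group gave both tissues, both Abcb1a probe sets were called in +/b as well (limma adjusted p = 0.0486 and 0.0208). As a random block, with an estimated correlation of 0.315, it left both uncalled in +/b (adjusted p = 0.169 and 0.116). The first of these fits called 2 of 7 members in +/b against 0.486% of all, 3 of 7 in b/b against 2.44%, and 3 of 7 averaged over genotypes against 4.49%.

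The averaged Abcb1a call held in all 25 alternative settings, with limma adjusted p at most 0.0387, and without both arrays of high pancreas signal the values were 1.49 and 1.39. The call within b/b was weaker: the brighter probe set lost it without any 1 of +/b jejunum replicates 1 and 2, b/b duodenum replicates 1, 2 and 3 or b/b jejunum replicates 2 and 3 (adjusted p 0.0524 to 0.195), and the dimmer without any 1 of b/b duodenum replicates 2 and 3 or b/b jejunum replicates 1, 2 and 3 (adjusted p 0.0524 to 0.131), while the log2 differences stayed between 1.42 and 1.76. The direction of the Abcb1a segment difference was shared by markers of crypts and dividing cells. Their 7 measured genes of 8 were all higher in the jejunum (median log2 difference 0.81, against 0.07 over all probe sets tested). Of the 7, 1 was called, against 1.4% of all: the basolateral chloride importer Slc12a2 (0.94 ± 0.20, limma adjusted p = 0.0278). With the block 4 of the 7 were called, against 4.49% of all. Their summed signal was 3478 to 8189 in +/b duodenum, 6987 to 11865 in +/b jejunum, 2786 to 3717 in b/b duodenum and 5029 to 8052 in b/b jejunum. On single arrays the order of these sums did not always match that of the brighter Abcb1a probe set. In +/b duodenum, replicate 2 had the highest Abcb1a signal (4047) and the lowest crypt sum (3478). In b/b jejunum both were lowest on replicate 1 and highest on replicate 3. Villus enterocyte markers had a median difference of -0.23, with 0 of 11 called. Medians were also above 0 for endothelium (0.48, 3 of 3 tested higher), leukocytes (0.42, 3 of 4) and smooth muscle and stroma (0.33, 6 of 8). They were below 0 for goblet (-0.12), blood (-0.30) and exocrine pancreas markers (-1.93). The leukocyte list, 5 of 6 with a probe set, had 1 called gene of 4 tested, against 1.4% of all. That was Lyz2, a lysozyme (1.47 ± 0.29, limma adjusted p = 0.0218). The list's sums were 27119 to 54505 and 30198 to 69477 in +/b duodenum and jejunum, and 24845 to 64198 and 29207 to 66280 in b/b. The part of these cell types in the Abcb1a difference was not tested.

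Abcc2 encodes MRP2, the brush border pump for glutathione, glucuronide and sulphate conjugates. It read 3303, 3430 and 2938 in +/b duodenum and 1800, 1703 and 2155 in +/b jejunum. The b/b values were 3096, 3942 and 4349 for the duodenum and 1992, 1502 and 3164 for the jejunum. The +/b groups did not overlap, and in b/b jejunum replicate 3 lay just above the lowest duodenum array. The jejunum was lower by 0.80 on the log2 scale (-0.80 ± 0.17; 95% interval -1.16 to -0.43; limma adjusted p = 0.0328), in 6 of 6 rat groups (ratios 0.381 to 0.733). Blocking on the rat group gave an adjusted p of 0.0061.

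Within a genotype the Abcc2 difference was -0.77 ± 0.24 in +/b (limma adjusted p = 0.680) and -0.82 ± 0.24 in b/b (adjusted p = 0.205). With the block b/b passed the test (adjusted p = 0.0453) and +/b did not (adjusted p = 0.149), and as a random block b/b did not either (adjusted p = 0.0508). The b/b minus +/b gap was -0.05 (95% interval -0.78 to 0.68). The averaged call depended on single arrays: it was lost without any 1 of +/b duodenum replicates 1 and 2, +/b jejunum replicates 1 and 2, b/b duodenum replicates 2 and 3 or b/b jejunum replicates 1 and 2 (adjusted p 0.0654 to 0.105), with log2 values between -0.79 and -0.68. It was also lost without both arrays of high pancreas signal (-0.72, adjusted p = 0.122). Leaving out b/b jejunum replicate 3 moved the b/b difference to -1.11 (adjusted p = 0.0453).

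Abcc3 encodes MRP3, a basolateral pump for glucuronides and bile acids. It read 660, 706 and 539 in +/b duodenum, 584, 670 and 389 in +/b jejunum, 891, 1221 and 611 in b/b duodenum, and 657, 686 and 394 in b/b jejunum. The groups overlapped in both genotypes, yet within each of the 6 rat groups the jejunum array was the lower (ratios 0.562 to 0.949). The difference of -0.43 ± 0.21 did not pass the test (95% interval -0.87 to 0.02; limma adjusted p = 0.426, or 0.0882 with the block). By group mean the order was b/b duodenum, +/b duodenum, b/b jejunum, +/b jejunum, with neighbours within their spread.

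Abcc1 encodes MRP1, a broadly expressed pump for glutathione conjugates. It was dim, at 193, 348 and 186 in +/b duodenum, 219, 224 and 199 in +/b jejunum, 59.3, 228 and 242 in b/b duodenum, and 226, 155 and 165 in b/b jejunum. The lowest value was on b/b duodenum replicate 1, the array least like the rest. The jejunum was the higher in 3 of 6 rat groups and the segment difference was 0.05 ± 0.30 (95% interval -0.60 to 0.70).

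Abcg2 encodes BCRP, a brush border half-transporter for sulphate conjugates, urate and dietary toxins. It read 3838, 7618 and 5227 in +/b duodenum and 5997, 6438 and 6016 in +/b jejunum. The b/b values were 5394, 7488 and 10344 for the duodenum and 6481, 6799 and 7197 for the jejunum. The duodenum arrays were spread widely around the narrow range of the jejunum arrays, with SDs of 1912 and 2485 against 249 and 359 (n = 3 each). The jejunum was the higher in 3 of 6 rat groups, and the difference was 0.03 ± 0.18 (95% interval -0.36 to 0.43).

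Nr1i2, the receptor that regulates several of these pumps, had no segment difference that passed the test. It read 1180, 1203 and 1146 in +/b duodenum, 1353, 1015 and 912 in +/b jejunum, 1167.3, 790.5 and 850.2 in b/b duodenum, and 1423.2, 1060.5 and 1086.4 in b/b jejunum. The jejunum was the higher in 3 of 3 b/b rat groups and in 1 of 3 +/b groups. Averaged, the difference was 0.11 ± 0.15 (95% interval -0.20 to 0.43; limma adjusted p = 0.810), an interval that leaves out changes the size of the Abcb1a difference.

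**Figure D2:**
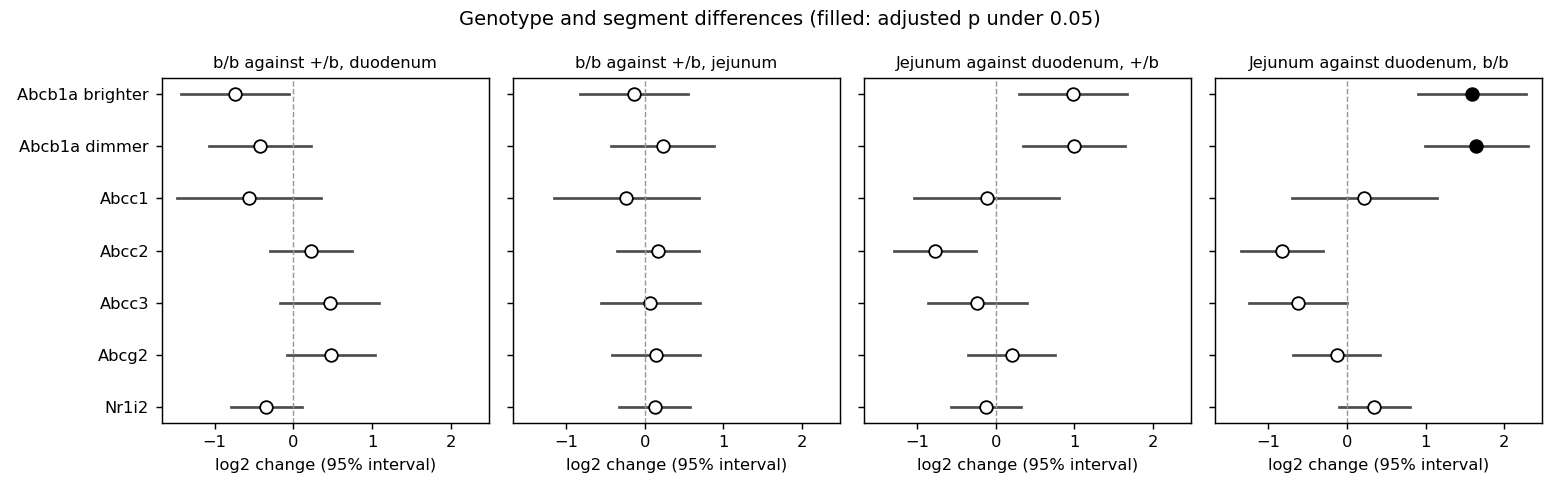
Log2 difference (points) with its 95% interval (bars) from the limma fit for each of the 7 member probe sets, in the genotype contrast of each segment and the segment contrast of each genotype; filled points passed an adjusted p of 0.05. The filled points are those of Abcb1a between jejunum and duodenum in b/b rats, at 1.59 and 1.65, and no point is filled in the genotype contrasts.

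The second comparison set b/b against +/b rats, and asked whether the efflux genes follow the mutation of the metal transporter. Of the 7 member probe sets 0 were called in the duodenum, against 0.0396% of all tested, and 0 in the jejunum, against 0.0339%. Averaged over the segments 0 were called, against 0.0565%. At an unadjusted p under 0.05 the counts were 1 in the duodenum (1092 of all probe sets), 0 in the jejunum (237) and 0 averaged (969).

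In the duodenum the member with the smallest p was the brighter Abcb1a probe set, which was lower in b/b, at 1397 ± 330 against 2520 ± 1343 (SD, n = 3 each). The log2 difference was -0.74 ± 0.32 (95% interval -1.43 to -0.05; limma adjusted p = 0.789). Without +/b duodenum replicate 2 it was -0.34, and without +/b duodenum replicate 3 it was -1.04. The dimmer probe set had -0.42 ± 0.30, with an interval from -1.07 to 0.23. The ranges of the genotypes overlapped for 7 of the 7 member probe sets, while 8.7% of all probe sets tested had no overlap. The shared probe set had none, at 971 ± 197 in b/b against 1437 ± 246 in +/b (-0.57 ± 0.26, limma adjusted p = 0.789).

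The pumps other than Abcb1a had intervals that included 0 in the duodenum. Abcg2 was 7742 ± 2485 in b/b and 5561 ± 1912 in +/b (log2 difference 0.48 ± 0.26), and Abcc3 was 908 ± 305 and 635 ± 86.3 (0.46 ± 0.29). Abcc2 was 3796 ± 639 and 3224 ± 255 (0.22 ± 0.24), and Abcc1 was 176 ± 102 and 242 ± 91.8 (-0.57 ± 0.43). Nr1i2 was 936 ± 203 in b/b and 1176 ± 28.8 in +/b (-0.35 ± 0.21). Single arrays carried much of these values: Abcc1 had 0.014 without b/b duodenum replicate 1, Abcg2 had 0.24 without +/b duodenum replicate 1, and Abcc3 had 0.22 without b/b duodenum replicate 2. The adjusted p-values of the 7 member probe sets ran from 0.789 to 0.909 (limma). The intervals are wide: that of Abcg2 ran from -0.08 to 1.04 and that of Abcc1 from -1.49 to 0.36, so a difference of 1 on the log2 scale, up for the first and down for the second, lies within them.

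In the jejunum the genotypes were closer. The 7 log2 differences lay between -0.23 and 0.23, and every adjusted p was 1.00 when rounded (0.999934, limma). Abcb1a on its brighter probe set was 4247 ± 976 in b/b and 4641 ± 946 in +/b, Abcc2 was 2219 ± 854 and 1886 ± 238, and Nr1i2 was 1190 ± 202 and 1093 ± 231. Only Abcg2 among the member probe sets had groups without overlap, at 6826 ± 359 and 6150 ± 249, a property shared by 7.9% of all probe sets tested. Between the segments, groups without overlap were found for 1 member probe set in +/b (Abcc2), against 10.8% of all, and for 2 in b/b (both of Abcb1a), against 14.8%.

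Summed blood markers differed with genotype. Their signal (4 of 5 genes with a probe set) was 1921 to 3523 (duodenum) and 1948 to 3003 (jejunum) in +/b rats, and 12532 to 17625 and 10243 to 14302 in b/b rats. Of the 3 blood genes tested, 3 were higher in b/b in the duodenum and 2 in the jejunum. Called were 1 in the duodenum, against 0.0396% of all, and 2 in the jejunum, against 0.0339%. Crypt markers were lower in b/b for all 7 measured genes in both segments, with 0 called and a median difference of -0.89 in duodenum and -0.42 in jejunum. The part of these cells in the values of the efflux genes was not tested.

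The third comparison was the interaction of genotype and segment. For the 7 member probe sets the jejunum effect minus the duodenum effect lay between -0.39 and 0.65, and 0 were called, as were 0% of all probe sets, with 0 of the 7 and 306 of all at an unadjusted p under 0.05. The highest values were those of Abcb1a, 0.61 ± 0.45 and 0.65 ± 0.43 (limma adjusted p = 0.99986 for both), with intervals of -0.37 to 1.59 and -0.27 to 1.57. Blocking on the rat group left the interaction uncalled for every member (limma adjusted p of 0.965 or higher). With the fixed block the unadjusted intervals of Abcb1a lay above 0, from 0.04 to 1.18 and from 0.15 to 1.15. By p these probe sets ranked 557 and 184 among the 17694 tested. With the random block their intervals included 0 (-0.15 to 1.37 and -0.05 to 1.36). Without +/b duodenum replicate 2 the unblocked value of the brighter probe set was 0.21, and without +/b jejunum replicate 3 that of the dimmer was 0.32.

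Of the 39 other ABC transporters 27 were tested. Between the segments 0 were called in the main fit, against 1.4% of all probe sets tested. Their median log2 difference was 0.06, against 0.07 over all probe sets. Cftr, the chloride channel of the family, had -0.83 ± 0.21 (limma adjusted p = 0.0736), and Abcg5 and Abcg8, which together return plant sterols to the lumen, had 0.80 ± 0.33 and 0.76 ± 0.30 (adjusted p = 0.340 and 0.304). With the block 2 of the 27 were called, against 4.49% of all: Cftr (limma adjusted p = 0.00712) and Abcg8 (adjusted p = 0.0327). Abcb4, the phospholipid flippase next to Abcb1b, was dim and had 0.01 ± 0.33. Between the genotypes 0 of the 27 were called, and Abcb10, a mitochondrial transporter of the haem pathway, had -0.36 and Abcc5 1.15 ± 0.59 averaged over segments (adjusted p = 0.890 for both). Without +/b duodenum replicate 3 the Abcc5 value was 0.40.

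Of 23 xenobiotic sensors and partners of PXR 17 were tested and 0 were called in either averaged contrast, nor in the segment contrast with the block. In the segment contrast Nfe2l2, the oxidative stress regulator NRF2, had -0.34 ± 0.15, the corepressor Ncor1 0.37 ± 0.21 and Hnf4a, a hepatic and intestinal identity factor, -0.18 ± 0.13 (limma adjusted p 0.377 to 0.619). In the genotype contrast Nr0b2, the corepressor SHP, had 0.51 ± 0.20 and Nr1i3, the receptor CAR, 0.34 ± 0.16 (adjusted p = 0.890 for both).

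Of 29 enzymes known as targets of Nr1i2 or Nr1i3 in liver or gut 15 were tested. Their median segment difference was -0.54, against 0.07 over all probe sets tested, and 12 of the 15 lay below 0. In the main fit 2 of the 15 were called, both lower in the jejunum, against 1.4% of all. Papss2, which makes the sulphate donor, had a mean signal of 32846 in +/b duodenum and 10968 in +/b jejunum, and 32660 and 8929 in b/b (-1.76 ± 0.30, limma adjusted p = 0.00751). Aldh1a1, a retinaldehyde dehydrogenase, fell by 1.32 ± 0.22 on the log2 scale (adjusted p = 0.00636), and lost its call without both arrays deposited on another scale (-1.20, adjusted p = 0.0774). Gsta3, a glutathione transferase, had -0.79 ± 0.18 (adjusted p = 0.0518). With the block 8 of the 15 were called, all lower in the jejunum, against 4.49% of all probe sets tested. They were Papss2, Aldh1a1, Gsta3, Gstm2, Alas1, Gsta4, Sult1b1 and Cyp3a9, the last a drug-oxidising cytochrome (-0.50, limma adjusted p = 0.022). Between the genotypes 0 were called; Alas1, the housekeeping enzyme that starts haem synthesis, had 0.60 ± 0.17 (adjusted p = 0.890) and Gsta3 -0.50 (adjusted p = 0.890).

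Of 29 drug transporters of the SLC families 16 were tested, with a median segment difference of 0.01, against 0.07 over all probe sets. In the main fit 1 of the 16 was called, against 1.4% of all probe sets tested. Slc28a2, a nucleoside carrier that also takes up nucleoside drugs, fell by 1.39 ± 0.25 on the log2 scale from duodenum to jejunum (limma adjusted p = 0.00978). With the block 3 of the 16 were called, against 4.49% of all. Besides Slc28a2 they were Slco2b1, an organic anion uptake carrier (0.62), and Slc22a18 (-0.45), with limma adjusted p = 0.0357 and 0.0413. In the genotype contrast Slco2b1 and Slc22a18 had -0.31 and 0.27, and 0 of the 16 were called (limma adjusted p = 0.890 for both genes).

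**Figure D3:**
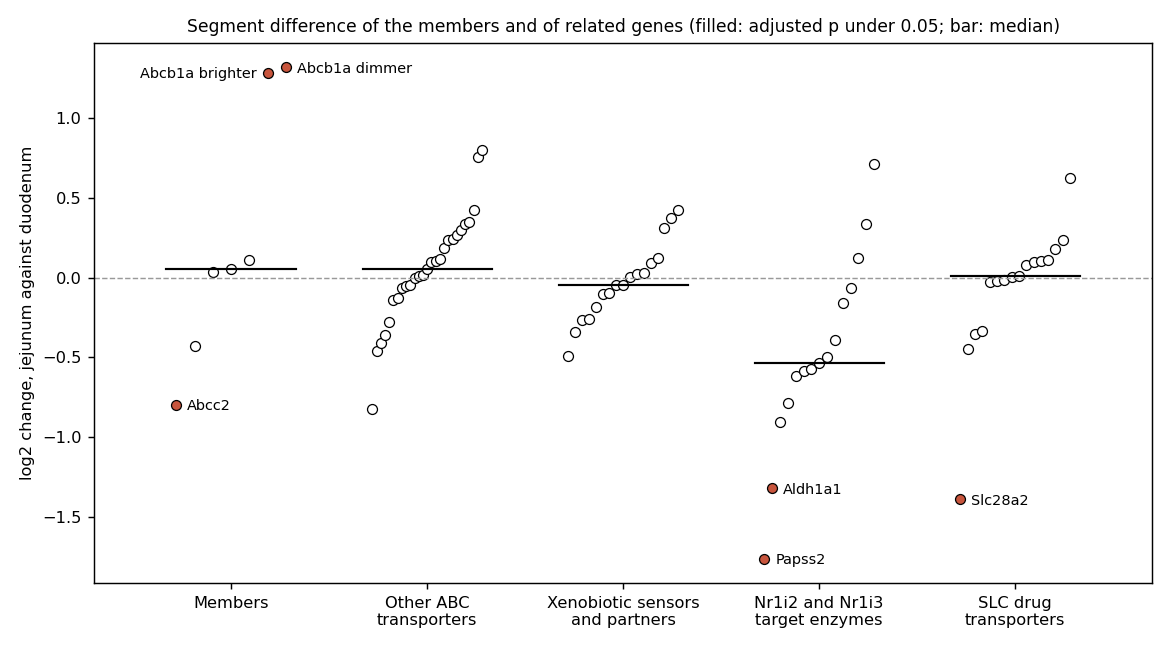
Log2 difference of jejunum against duodenum, averaged over genotypes, for the 7 member probe sets and the tested genes of 4 lists; each point is a probe set, filled where the limma adjusted p was under 0.05, and the bar is the list's median. Abcb1a stands at the top at 1.29 and 1.32, Papss2 at the bottom at -1.76, and the enzyme list has its median at -0.54.

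The genes with the most similar signals across the 12 arrays were sought among 10061 tested genes, with the Pearson correlation of log2 signals as the measure. Arrays share segment, genotype and rat group, so these values describe the arrays only. For Abcb1a (brighter probe set) they were Adgrl2, an adhesion receptor (0.966), and Gcg, the proglucagon of enteroendocrine L cells (0.946), whose own segment difference was 2.48. For Abcc2 they were Sulf2, a heparan sulphatase (0.980), and Akp3, an intestinal alkaline phosphatase (0.943), the latter with a segment difference of -5.87. For Abcc3 they were Prr15l (0.962) and Cdhr2, a protocadherin of the brush border (0.897), and for Abcg2 Egln2, an oxygen-sensing prolyl hydroxylase (0.938), and Selenoi (0.913). For Abcc1 they were Pex26 (0.941) and Neurl4 (0.923), and for Nr1i2 Rbp4, a retinol carrier (0.899), and Enpep, a brush border peptidase (0.894).

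**Figure D4:**
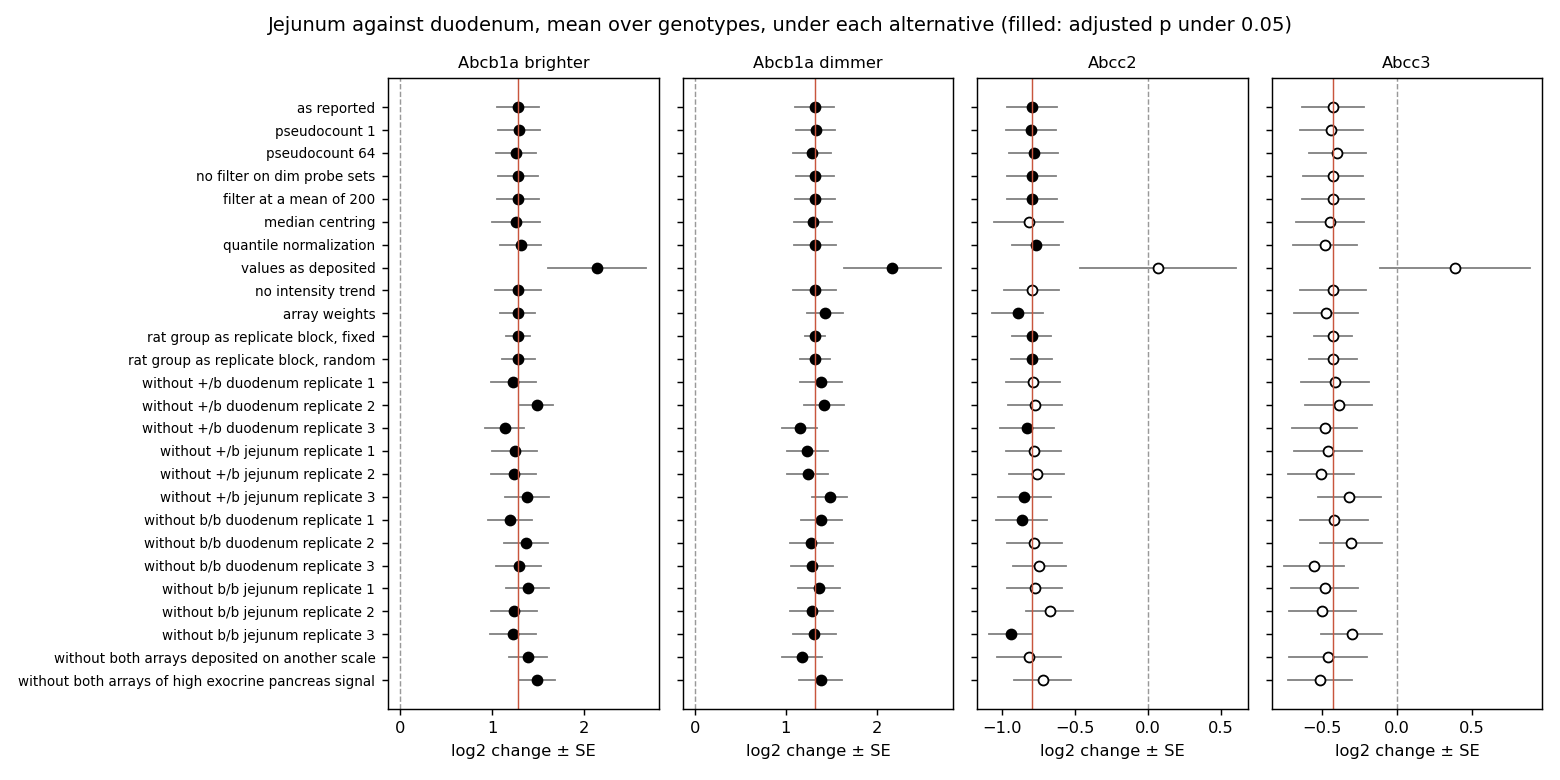
Log2 difference of jejunum against duodenum, averaged over genotypes, of Abcb1a, Abcc2 and Abcc3 as reported and under 25 alternative settings; each point is a setting with its SE, filled where the limma adjusted p was under 0.05, and the red line is the reported value. Both Abcb1a probe sets are filled throughout, and Abcc2 lies between -0.94 and 0.06 and is filled under 12 of 25 alternatives, and Abcc3 is below 0 except with the values as deposited.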

How the data were processed

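RNA was labelled with biotin and hybridised to Affymetrix arrays, per the labels' protocols. The deposited values are linear signal intensities, 1 for each probe set, and the submitters' processing notes name MAS5 for 10 of the 12 arrays (version: not given in the sources used here). Of 31099 probe sets 57 controls were left out. Scaling to the common trimmed mean multiplied +/b duodenum replicates 2 and 3 by 9.69 and 3.95. Tests took in the 17694 probe sets whose scaled signal averaged 100 or more across the arrays, the 7 of the members among them. A multiplied array carries multiplied noise at the dim end, and the number of arrays limits the precision.

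A linear model with 4 group means was fitted to log2(signal + 16) with limma 3.58.1 (R 4.3.3, eBayes with an intensity trend, two-sided, Benjamini-Hochberg over all probe sets tested, threshold 0.05); the pseudocount understates changes of dim genes. The fit was tested on simulated data. The main fit has no block. The series' design gives duodenum and jejunum of 1 group of rats the same source, and same-numbered arrays were taken to pair them. That a number marks the same rats in both tissues is not stated in the labels. Deviations of same-numbered arrays correlated at 0.158 to 0.382 in all 6 rat groups, and differently numbered arrays were not compared. Summed villus enterocyte markers fell from replicate 1 to 2 to 3 in all 4 groups. The correlations therefore cannot tell shared rats from anything else a replicate number marks. The counts by rat group and the block fits rest on the assumed pairing. P-values of the main fit measure the spread between arrays of the same genotype and segment. Its averaged contrasts treat both arrays of a rat group as independent. Those of the fixed block measure the spread of the jejunum minus duodenum difference between rat groups.

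The members and lists were chosen with earlier results of these data known. Named were all member probe sets, per list the 3 genes of smallest p in the averaged segment contrast and the 2 in the averaged genotype contrast, and the 2 most correlated genes per member, each gene by its brightest probe set. Abcb4, Gstm2, Alas1, Gsta4, Sult1b1, Cyp3a9, Slc12a2 and Lyz2 were named in a segment comparison after their values were seen. Marker lists also covered goblet cells (summed signal of 5 genes 74633 to 188000 over the arrays). Others were smooth muscle and stroma (8 genes, 2726 to 6966) and endothelium (5 genes, 416 to 1031, 3 of them tested). Between the segments 0 of their tested genes were called in the main fit. With the block 1 of 5 goblet genes was called averaged over genotypes, against 4.49% of all. Alternatives covered the pseudocount, filter, scaling, trend, array weights, block and each array left out; leaving out both arrays of high pancreas signal was added after seeing the data.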

Additional observations from a re-analysis of the deposited data

How the results depend on the processing

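The alternatives gave 1696 recomputed values for single probe sets, of which 1631 kept their direction or stayed uncalled on the same side of the threshold, 30 gained a call, 34 lost one and 1 turned. Among 1496 uncalled values, 57 changed sign. With the values as deposited, without the scaling of the arrays, the Abcc2 segment difference turned to 0.065 (adjusted p = 0.910) and those of Abcb1a grew to 2.15 and 2.17; this setting leaves +/b duodenum replicates 2 and 3 on their own scale. The count of member probe sets called between the segments in +/b was 0 and became 3 with the values as deposited and 2 with the rat group as a fixed replicate block. In b/b it was 2 and became 1 with median centring or without both arrays of high pancreas signal, 0 with the values as deposited or without the intensity trend, and 3 with array weights or the fixed block, by the addition of Abcc2. Leaving out 1 array at a time gave counts of 0 to 2 in b/b. For the members neither block changed an interaction call (over all probe sets the fixed block called 2 interactions against 0). The random block changed no genotype call of a member, and the fixed block cannot estimate genotype contrasts. Between the segments, with the random block 0 members were called in +/b, 2 in b/b and 3 averaged. Abcc2 also lost its averaged call with median centring (adjusted p = 0.184), without the trend (0.0875) and without both arrays deposited on another scale (0.130). Over all probe sets tested, the averaged segment contrast called 247 in the main fit, 595 with array weights, 795 with the fixed block and 137 without both arrays on another scale. The cause of these shifts was not tested, beyond what each setting leaves out.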
